A study of Mus musculus with 18 samples.

Results

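The genes described here are 10 transcripts widely used as readouts of the transcriptional co-activator YAP: Ccn1, Ccn2, Ankrd1, Amotl2, Axl, Myof, Foxf2, F3, Igfbp3 and Gadd45a. They were taken by gene symbol from both deposited gene tables, where all 10 were found among 22137 genes of the diet table and 24778 genes of the hairpin table. All 10 passed the filter on low counts in both tables, which left 16340 and 16571 genes for testing. Bulk RNA was sequenced from tumours that cells of the mouse colon carcinoma line MC38 formed in the liver after injection into the spleen. There were 18 libraries in 4 groups. In the diet table, tumours came from wild-type mice fed a high-fat diet (HFD, n = 5) or a low-fat diet (LFD, n = 5). In the hairpin table, tumours labelled shYap (n = 4) or shCon (n = 4) all came from wild-type mice on the high-fat diet. The labels do not say which cells carried the hairpin, and bulk tumour RNA also holds the Yap1 and the target transcripts of host cells. In such samples, fewer cells of a type and less RNA per cell cannot be told apart.

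YAP and its paralogue TAZ, encoded by Yap1 and Wwtr1, are co-activators that the Hippo kinases LATS1 and LATS2 keep out of the nucleus. In the nucleus they bind DNA through the TEAD factors and raise transcription of genes for matrix-associated proteins, receptors and cytoskeletal regulators. Several of these genes also respond to AP-1, serum response factor or TGF-beta, so their transcripts are not exclusive to YAP.

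Libraries held 17766207 to 18474191 estimated counts in the diet table and 17207214 to 21309950 in the hairpin table. Hepatocyte markers (15 genes, summed) reached 477 to 3855 CPM (counts scaled to library size) in HFD and 10781 to 106360 CPM in LFD tumours, without overlap, and all 15 were lower in HFD. Fibroblast markers (10 genes, summed) reached 6872 to 9067 CPM in HFD and 3190 to 5973 CPM in LFD tumours, and 4 of the 10 were higher in HFD. Of their fold changes 7 were positive and the others negative, and 0 were called lower. The collagen gene Col3a1 was the largest part of this sum, with means of 5036 CPM in HFD and 2664 CPM in LFD tumours. In the hairpin table the hepatocyte sum was 12959 to 61616 CPM in shYap and 10908 to 38782 CPM in shCon libraries. The fibroblast sum there was 2968 to 5742 CPM in shYap and 5683 to 6227 CPM in shCon libraries. T cell markers (7 genes, summed) reached 15.3 to 26.0 CPM in shYap and 32.9 to 73.6 CPM in shCon libraries, without overlap, although 0 of the 7 were called, beside 0 of all 16571 genes. In the diet table they reached 10.1 to 35.9 CPM in HFD and 28.1 to 99.5 CPM in LFD tumours, and all 7 were lower in HFD. By the same edgeR test at an adjusted p under 0.05, 19.4% of all genes of the diet table were higher in HFD and 21.6% lower. Epithelial markers (8 genes, summed) reached 192 to 364 CPM in HFD and 57.3 to 546 CPM in LFD tumours, lowest in LFD replicates 2 and 4. Of these, Cldn4, a tight junction gene, was higher in HFD (log2 fold change 0.90) and Cdh1, which encodes E-cadherin, was lower (-1.89). Epcam, a surface protein of epithelial and most carcinoma cells, stayed between 0.553 and 1.62 CPM in the diet table and between 0.555 and 2.42 CPM in the hairpin table. Krt8 and Krt18, epithelial keratins also made by hepatocytes, reached 19.8 to 274 and 8.60 to 236 CPM in the diet table. They made up most of the epithelial sum, with LFD means of 112 and 118 CPM, beside 17.6 CPM for Cdh1, the next highest. LFD replicates 2 and 4, lowest in the epithelial sum, were also the LFD libraries lowest in the hepatocyte sum. The library labelled shYap replicate 3 lay farthest from the other libraries of its group (root mean square log2 difference 0.885), with LFD replicate 5 nearly as far from its own group (0.867). Replicate 3 of shYap also had the fewest estimated counts of the hairpin table (17207214) and the lowest hepatocyte sum of the shYap libraries (12959 CPM).

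Promoter windows from 250 bases before to 50 bases after the start site were available for 9 of the 10 genes from RefSeq (GRCm38.p6). Ccn2 had no window and was not searched. A window was searched on both strands for the core letters of the TEAD motif (GGAATG, or CATTCC on the other strand), for the AP-1 motif TGANTCA and for the CArG box of serum response factor. The 4 windows that held a TEAD match are shown with the match in capitals, 5′ to 3′ on the strand of the gene. They are from Ccn1 (chr3:145649936-145650235, minus strand), Ankrd1 (chr19:36119795-36120094, minus strand), Amotl2 (chr9:102717554-102717853, plus strand) and Axl (chr7:25788684-25788983, minus strand).
Ccn1: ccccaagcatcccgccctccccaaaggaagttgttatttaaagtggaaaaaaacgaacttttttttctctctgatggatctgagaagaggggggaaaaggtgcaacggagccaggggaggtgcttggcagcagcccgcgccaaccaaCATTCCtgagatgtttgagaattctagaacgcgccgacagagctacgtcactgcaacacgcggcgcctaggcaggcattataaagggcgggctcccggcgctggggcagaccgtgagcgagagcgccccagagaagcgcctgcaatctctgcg
Ankrd1: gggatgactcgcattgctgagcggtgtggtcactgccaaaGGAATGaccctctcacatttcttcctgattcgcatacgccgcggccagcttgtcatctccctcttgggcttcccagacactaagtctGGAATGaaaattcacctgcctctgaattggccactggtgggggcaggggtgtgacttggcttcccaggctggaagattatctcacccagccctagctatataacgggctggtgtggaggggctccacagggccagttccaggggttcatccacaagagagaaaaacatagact
Amotl2: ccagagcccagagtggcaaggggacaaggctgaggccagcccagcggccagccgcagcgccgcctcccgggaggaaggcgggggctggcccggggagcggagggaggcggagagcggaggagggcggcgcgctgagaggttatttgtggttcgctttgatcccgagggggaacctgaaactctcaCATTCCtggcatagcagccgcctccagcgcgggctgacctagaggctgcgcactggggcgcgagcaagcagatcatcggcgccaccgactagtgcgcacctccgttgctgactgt
Axl: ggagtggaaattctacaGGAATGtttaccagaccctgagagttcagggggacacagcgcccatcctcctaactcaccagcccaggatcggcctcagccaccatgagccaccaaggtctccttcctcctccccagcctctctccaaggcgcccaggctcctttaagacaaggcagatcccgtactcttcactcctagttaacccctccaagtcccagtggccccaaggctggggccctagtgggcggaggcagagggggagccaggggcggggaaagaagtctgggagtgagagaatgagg

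In Ccn1 the match began 103 bases before the start site, in Amotl2 65 bases and in Axl 233 bases before it. Ankrd1 had 2 matches, at 210 and 123 bases. The windows of Amotl2 and Ankrd1 lie wholly inside the gene positions given below. For these genes the RefSeq start site is thus downstream of the annotated start of the gene. The next pair of windows is shown because F3 (chr3:121723287-121723586, plus strand) held the AP-1 motif, in capitals, and because Foxf2 (chr13:31625566-31625865, plus strand), the gene with the largest fold between the diets, held none of the searched motifs.
F3: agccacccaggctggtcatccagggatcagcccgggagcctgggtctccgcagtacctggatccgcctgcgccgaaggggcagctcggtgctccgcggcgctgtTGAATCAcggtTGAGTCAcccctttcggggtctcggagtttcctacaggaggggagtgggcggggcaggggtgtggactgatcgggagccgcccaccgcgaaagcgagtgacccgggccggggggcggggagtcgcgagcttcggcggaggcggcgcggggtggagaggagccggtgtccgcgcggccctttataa
Foxf2: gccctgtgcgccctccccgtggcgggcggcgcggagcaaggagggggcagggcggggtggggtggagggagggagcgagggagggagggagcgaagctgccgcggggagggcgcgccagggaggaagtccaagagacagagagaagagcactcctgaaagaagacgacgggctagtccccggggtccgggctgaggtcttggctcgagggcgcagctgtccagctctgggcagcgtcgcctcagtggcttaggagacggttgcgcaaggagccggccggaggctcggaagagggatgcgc

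The AP-1 matches of F3 began 146 and 135 bases before the start site and did not overlap each other. Across all 32851 RefSeq windows of this length, 14.663% held the TEAD letters, 7.808% the AP-1 letters and 1.629% the CArG box. None of the 9 windows held a CArG box, and those of Myof, Igfbp3 and Gadd45a held none of the motifs. A match is a run of letters and not a measured binding site.

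**Figure D1:**
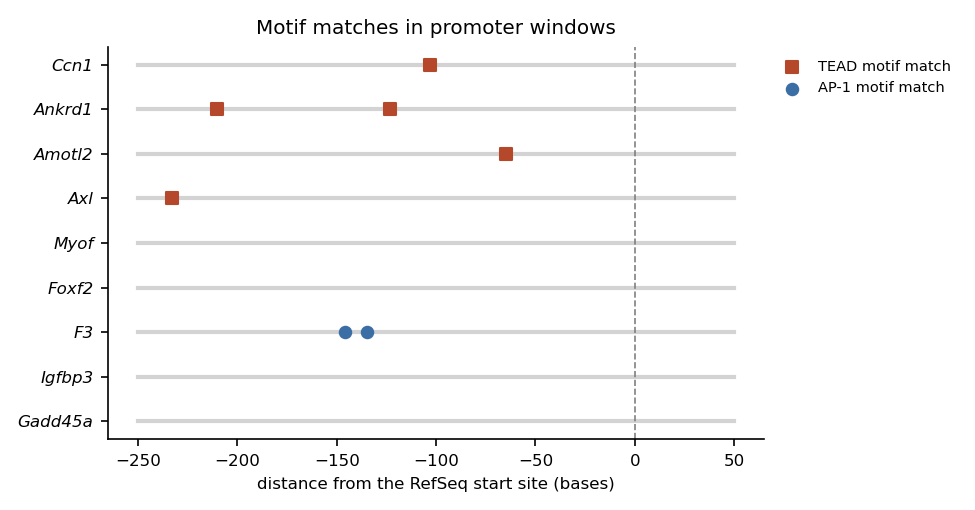
Matches to the TEAD motif (squares) and the AP-1 motif (circles) in the promoter windows of 9 YAP target genes, as the distance in bases from the RefSeq start site (dashed line). Grey bars span the window searched, from 250 bases before to 50 bases after the start site. Ccn1, Ankrd1, Amotl2 and Axl hold TEAD matches, and F3 holds 2 AP-1 matches.

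Levels of different genes were set side by side per kilobase of exon. Axl was the highest of the 10 genes in every group, at 138 ± 9.5 CPM per kb in HFD, 86.9 ± 19.5 in LFD, 141 ± 32.6 in shYap and 128 ± 14.0 in shCon tumours (SD). Foxf2 was the lowest, at 1.82 ± 0.327 CPM per kb in HFD, 0.370 ± 0.120 in LFD, 0.607 ± 0.177 in shYap and 0.722 ± 0.0735 in shCon tumours. Between these ends in HFD tumours stood Ccn1 (29.5 ± 5.04 CPM per kb), Myof (26.3 ± 1.41), Gadd45a (25.4 ± 8.75) and Igfbp3 (22.2 ± 5.95), where the difference between each gene and the next was smaller than the larger of their SDs. Ankrd1 followed at 18.8 ± 1.55 CPM per kb, F3 at 10.4 ± 3.19, Amotl2 at 9.16 ± 0.689 and Ccn2 at 5.97 ± 3.22, and of these steps downward only that between Ankrd1 and F3 was larger than both SDs. In shYap tumours Ccn1 stood second at 90.7 ± 59.7 CPM per kb, against 54.7 ± 17.9 in shCon tumours. Estimated counts were not whole numbers in 16 of 18 libraries for Gadd45a, 15 for Axl, 12 for Myof and 9 for Ccn2 (tolerance 0.02), so part of the reads of these genes had been assigned by estimation.

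The first comparison asked how the genes differ between tumours of mice on the high-fat and the low-fat diet. Of the 10 genes, 5 were higher in HFD tumours: Foxf2, Myof, Igfbp3, F3 and Axl. The other 5, Ccn1, Ccn2, Ankrd1, Amotl2 and Gadd45a, did not pass the test, and none was lower. The test was edgeR's quasi-likelihood test with Benjamini-Hochberg adjustment over all genes tested, at an adjusted p under 0.05. By that rule 41.1% of all genes were called, 19.4% as higher and 21.6% as lower, so a call was common in these libraries. The median log2 fold change of the 10 genes was 0.68, beside -0.0018 for all genes, and 8 of the 10 were positive.

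Of the secreted products, Ccn1 and Ccn2 are matricellular proteins that bind integrins, and Igfbp3 binds insulin-like growth factors outside the cell. Ccn1 (chr3:145646976-145649981) had 69.3, 66.5, 46.4, 51.1 and 64.8 CPM in HFD replicates 1 to 5, against 34.1, 83.2, 71.9, 63.3 and 72.8 CPM in LFD replicates 1 to 5. The groups overlapped, with the lowest value in LFD replicate 1, and the log2 fold change was -0.13 ± 0.22 (SE; 95% interval -0.55 to 0.30; adjusted p = 0.668). Ccn2 (chr10:24595442-24598683) had 25.2, 27.1, 6.10, 9.81 and 17.3 CPM in HFD, against 8.79, 5.34, 25.7, 3.46 and 12.04 CPM in LFD tumours. Its libraries ranged 4.44-fold within HFD and 7.44-fold within LFD, and the log2 fold change of 0.63 ± 0.57 (95% interval -0.50 to 1.75) was not called (adjusted p = 0.409). Igfbp3 (chr11:7206086-7213923) had 55.7, 65.1, 75.7, 98.4 and 52.1 CPM in HFD, against 38.5, 32.5, 41.9, 27.0 and 48.7 CPM in LFD tumours. Every HFD library lay above every LFD library, and Igfbp3 was higher by 0.88 ± 0.20 on the log2 scale (adjusted p = 0.00682). Groups that do not overlap were found for 4 of the 10 genes, each with HFD above, and for 30.6% of all genes, 15.8% with HFD above.

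Of the membrane proteins, Axl is a receptor tyrosine kinase for the ligand Gas6, F3 is tissue factor, the receptor that starts blood coagulation, and Myof is the ferlin myoferlin, which acts in membrane repair and vesicle fusion. Axl (chr7:25757273-25788705) had 676, 662, 751, 737 and 641 CPM in HFD, against 334, 550, 389, 535 and 378 CPM in LFD tumours. All HFD values lay above all LFD values, with the 2 highest LFD libraries, replicates 2 and 4, nearest to them (log2 fold change 0.67 ± 0.14, adjusted p = 0.00522). Myof (chr19:37899036-38043577) had 331, 351, 345, 325 and 306 CPM in HFD, against 108, 217, 140, 217 and 162 CPM in LFD tumours. The groups did not overlap, the same LFD libraries were again highest, and Myof was 1.964-fold higher in HFD (log2 fold change 0.97 ± 0.18, adjusted p = 0.00232). F3 (chr3:121723537-121735048) had 29.4, 33.8, 16.4, 18.7 and 32.5 CPM in HFD, against 15.04, 18.3, 14.5, 17.6 and 12.9 CPM in LFD tumours. HFD replicates 3 and 4 lay within or next to the LFD range while replicates 1, 2 and 5 lay above it, and F3 passed the test with overlapping groups (log2 fold change 0.74 ± 0.21, adjusted p = 0.0187).

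Of the nuclear and cytoplasmic proteins, Foxf2 is a forkhead transcription factor of mesenchymal cells, Ankrd1 an ankyrin repeat protein of muscle that also acts in the nucleus, Gadd45a a growth arrest protein induced by DNA damage, and Amotl2 an angiomotin that binds YAP and holds it outside the nucleus. Foxf2 (chr13:31625816-31631403) had 4.69, 4.70, 3.73, 3.27 and 5.13 CPM in HFD, against 1.03, 1.19, 0.981, 0.681 and 0.488 CPM in LFD tumours. No HFD library came near the LFD range, and Foxf2 was 4.84-fold higher in HFD (log2 fold change 2.28 ± 0.25, adjusted p = 0.000218). Its counts were low, 65 to 105 in HFD and 6 to 23 in LFD libraries, and the count of 6 has a 95% Poisson interval of 2.20 to 13.1, which covers counting error only. Ankrd1 (chr19:36111961-36120099) had 60.1, 52.1, 58.0, 52.2 and 49.4 CPM in HFD, against 21.7, 47.9, 37.9, 62.8 and 30.6 CPM in LFD tumours. LFD replicate 4 was above every HFD library while the other 4 were below them all, and the log2 fold change of 0.43 ± 0.24 did not pass (adjusted p = 0.169). Without LFD replicate 4 it was 0.65 with an adjusted p of 0.0262, in a range of 0.0262 to 0.668 over the alternatives. Gadd45a (chr6:67035096-67037457) had 33.2, 32.5, 63.5, 59.7 and 34.9 CPM in HFD, against 18.9, 34.9, 17.2, 21.7 and 45.7 CPM in LFD tumours. The groups overlapped through LFD replicates 2 and 5 (log2 fold change 0.70 ± 0.32, adjusted p = 0.107). Without LFD replicate 5 it was 0.97 with an adjusted p of 0.0262, in a range of 0.0262 to 0.733 over the alternatives. Amotl2 (chr9:102716672-102733418) ranged from 52.9 to 62.4 CPM in HFD and from 47.8 to 76.2 CPM in LFD tumours, with a log2 fold change of -0.16 ± 0.12 (95% interval -0.40 to 0.079; adjusted p = 0.321).

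**Figure D2:**
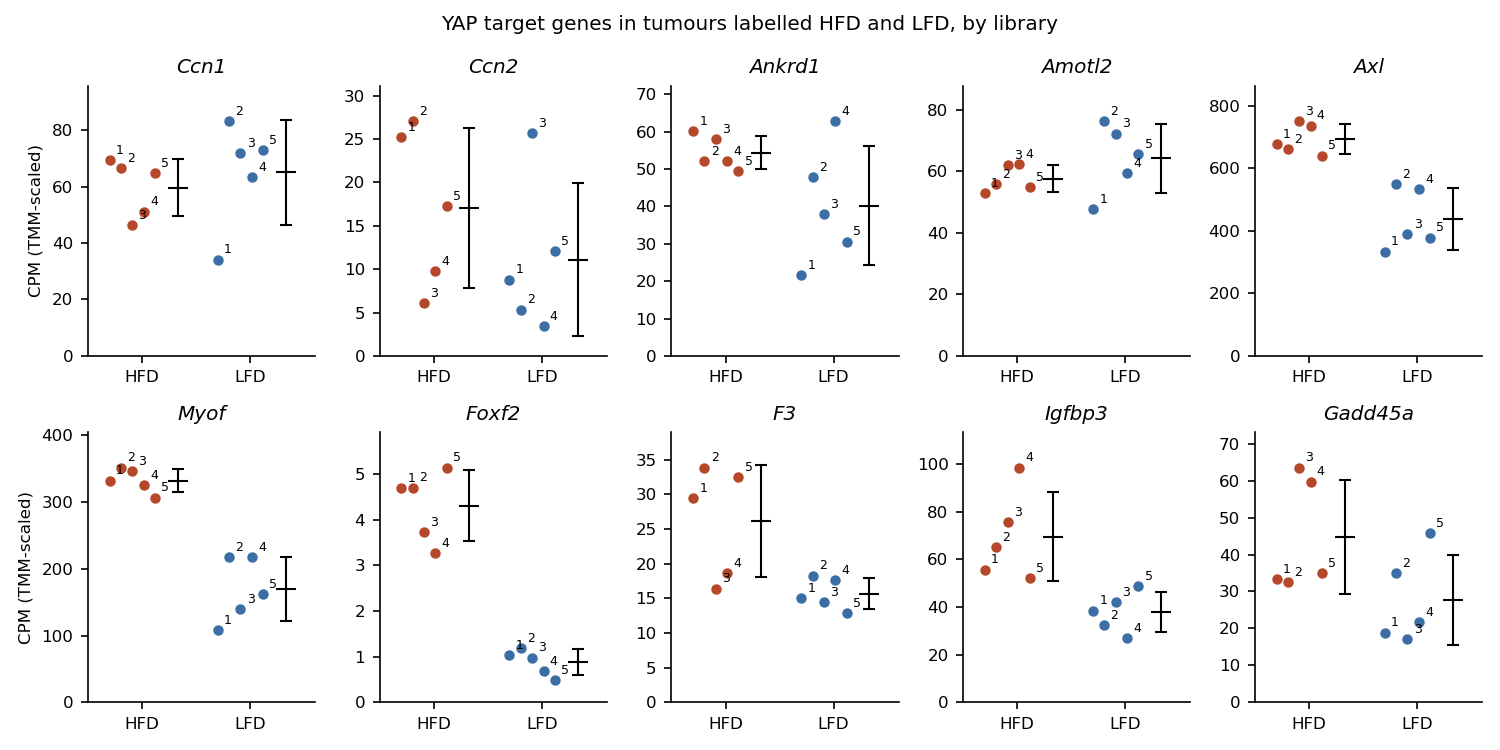
CPM of each of the 10 YAP target genes by library in the diet table, HFD on the left and LFD on the right of each panel, with replicate numbers beside the points and the mean ± SD (n = 5) at the right of each group. All HFD points lie above all LFD points for Axl, Myof, Foxf2 and Igfbp3, while Ccn1, Ccn2, Ankrd1, Amotl2, F3 and Gadd45a overlap.

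Because hepatocyte markers separated the diets completely, hepatocyte RNA and diet cannot be told apart in these libraries. With the hepatocyte marker level as a covariate, 1 of the 10 genes was called, beside 8.35% of all genes: Foxf2 kept a log2 fold change of 2.28 (adjusted p = 0.0193, the highest over its 20 alternatives, the lowest being 9.16e-16). Axl was then at 0.11 ± 0.21 and Myof at 0.55 ± 0.31, both smaller than without it. Ccn2 moved the other way, to 2.56 ± 0.96, and was not called (adjusted p = 0.116, in a range of 0.0962 to 0.636 over the alternatives). Igfbp3 at 1.03 ± 0.44 and F3 at 0.93 ± 0.41 were no smaller than without the covariate, but their standard errors were wider and they were not called. Without the LFD libraries of highest hepatocyte level, replicates 1 and 5, 4 of the genes were called, beside 42.9% of all genes, and F3 was not (log2 fold change 0.66 ± 0.26, adjusted p = 0.0728, in a range of 0.00674 to 0.172 over the alternatives). The part that hepatocyte, fibroblast or T cell RNA plays in the differences was not tested.

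The coefficient of variation in HFD tumours ran from 5.36% for Myof and 6.90% for Axl to 53.9% for Ccn2, with a median of 7.79% over all genes of at least 5 CPM. In HFD, Ccn1, Ccn2 and F3 were highest in replicates 1, 2 and 5, while Gadd45a and Igfbp3 were highest in replicates 3 and 4. In LFD tumours Ccn2 varied by 79.7%, Gadd45a by 44.3% and Ankrd1 by 39.5%, against a median of 18.4% over all genes, and F3 varied least, by 14.4%. Ccn1, Ankrd1, Amotl2, Axl and Myof were each lowest in LFD replicate 1.

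The regulators of the genes were measured in the same libraries. Yap1 had 103, 101, 102, 94.8 and 96.3 CPM in HFD, against 111, 101, 116, 101 and 122 CPM in LFD tumours. The groups overlapped, and the log2 fold change of -0.15 ± 0.07 was not called (adjusted p = 0.122). Wwtr1, which encodes TAZ, had 183 to 189 CPM in HFD and 121 to 149 CPM in LFD tumours and was higher in HFD by 0.44 ± 0.07 on the log2 scale (adjusted p = 0.00111). Of the TEAD genes, Tead4 (log2 fold change 1.46), Tead2 (0.83) and Tead3 (0.39) were higher in HFD, and Tead1 (0.14) did not pass, nor did the TEAD co-factor gene Vgll4 (-0.08).

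Further lists gave a mixed picture in the diet table, to be read against the 41.1% of all genes called. Of 12 other YAP and TAZ target genes, 1 was higher in HFD, Asap1, a regulator of the small GTPase ARF (log2 fold change 0.51). Another 2 were lower, Crim1, a transmembrane binder of bone morphogenetic proteins (-0.32), and the kinase gene Nuak2 (-0.42). The median of these 12 was -0.015. Of 16 immediate early genes, 4 were higher, the transcription factor genes Klf4 (1.77), Klf6 (0.39) and Jun (0.54) and the stress gene Ier3 (0.81), and 1 was lower, Zfp36 (-1.89), whose product promotes mRNA decay. Jun was added to the named genes after its value was seen. Of 10 TGF-beta targets, 2 were higher, Pmepa1 (1.40), an inhibitor of SMAD signalling, and Fn1 (0.92), which encodes fibronectin. Of 13 targets of serum response factor, 3 were higher, the smooth muscle calponin gene Cnn1 (1.61), the tropomyosin gene Tpm2 (0.73) and Vcl (0.70), which encodes vinculin of cell adhesions.

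The second comparison asked how the genes differ between tumours labelled shYap and shCon. Yap1, the target of the hairpin, had 71.6, 80.0, 81.4 and 70.5 CPM in replicates 1 to 4 labelled shYap, against 78.1, 82.4, 73.8 and 77.4 CPM in replicates 1 to 4 labelled shCon. The groups overlapped and the log2 fold change was -0.04 ± 0.11 (95% interval -0.25 to 0.17; adjusted p = 0.937), so the label of the hairpin was not visible as a lower Yap1 level in tumour RNA. All directions that follow are therefore between libraries as labelled.

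None of the 10 genes passed the test between the libraries labelled shYap and shCon, and none had groups without overlap, beside 0 genes called and 6.57% of genes without overlap among all 16571 (2.61% with shYap above). At an unadjusted p under 0.05 edgeR gave 1804 genes (10.9%), 1 of them in the list, Ankrd1. Limma voom called 0 genes, and DESeq2 called 408, none of the 10 among them. The fold changes of 9 of the 10 genes were positive, meaning higher in the libraries labelled shYap, with a median of 0.42 on the log2 scale beside 0.027 for all genes. The part that the lower T cell marker sum in shYap libraries plays in these values was not tested.

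Ccn1 had 130, 143, 362 and 97.3 CPM in shYap libraries, against 160, 110, 75.3 and 96.5 CPM in shCon libraries. The value of shYap replicate 3 was more than any other, and the log2 fold change was 0.73 ± 0.41 (adjusted p = 0.594), or 0.19 ± 0.25 without that library. Ccn2 had 28.2, 23.2, 19.3 and 38.6 CPM in shYap libraries, against 23.7, 16.98, 8.33 and 27.6 CPM in shCon libraries. For this gene shYap replicate 3 was the lowest of its group, and the groups overlapped (log2 fold change 0.51 ± 0.36, adjusted p = 0.676). Igfbp3 had 37.0, 38.4, 71.9 and 52.2 CPM in shYap libraries, against 57.1, 49.6, 49.6 and 25.0 CPM in shCon libraries, a log2 fold change of 0.14 ± 0.29 (adjusted p = 0.915).

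F3 had 4.16, 12.98, 73.4 and 11.04 CPM in shYap libraries, against 19.0, 15.1, 16.3 and 13.3 CPM in shCon libraries. The shYap libraries 1, 2 and 4 lay below all shCon libraries and replicate 3 lay above them all, so that the log2 fold change of 0.67 ± 0.74 (adjusted p = 0.815) became -0.74 ± 0.34 (adjusted p = 0.365, the lowest over its 17 alternatives, the highest being 0.999) without replicate 3. Axl had 537 to 932 CPM in shYap and 570 to 730 CPM in shCon libraries, with a log2 fold change of 0.14 ± 0.18. Myof had 150 to 328 CPM in shYap and 183 to 219 CPM in shCon libraries (0.26 ± 0.21). For both, shYap replicate 1 was the highest library and shYap replicate 4 the lowest.

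Ankrd1 had 83.2, 72.9, 51.5 and 43.8 CPM in shYap libraries, against 46.8, 42.3, 40.6 and 33.1 CPM in shCon libraries. Replicate 4 of shYap lay within the shCon range and the others above it, and the log2 fold change of 0.63 ± 0.21 had an unadjusted p of 0.0152 and an adjusted p of 0.329. Gadd45a had 25.3, 30.1, 102 and 15.1 CPM in shYap libraries, against 24.7, 17.9, 20.96 and 12.5 CPM in shCon libraries. Its log2 fold change of 1.18 ± 0.55 (adjusted p = 0.491) was 0.33 ± 0.28 without shYap replicate 3. Amotl2 had 65.1 to 98.2 CPM in shYap and 57.9 to 88.2 CPM in shCon libraries, where 3 shCon libraries lay at 57.9 to 58.2 CPM and replicate 4 at 88.2 CPM (log2 fold change 0.32 ± 0.18, adjusted p = 0.597). Foxf2, at 17 to 36 counts in shYap and 32 to 41 counts in shCon libraries, had the negative fold change of the list (log2 -0.25 ± 0.30; 95% interval -0.84 to 0.34; adjusted p = 0.832).

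**Figure D3:**
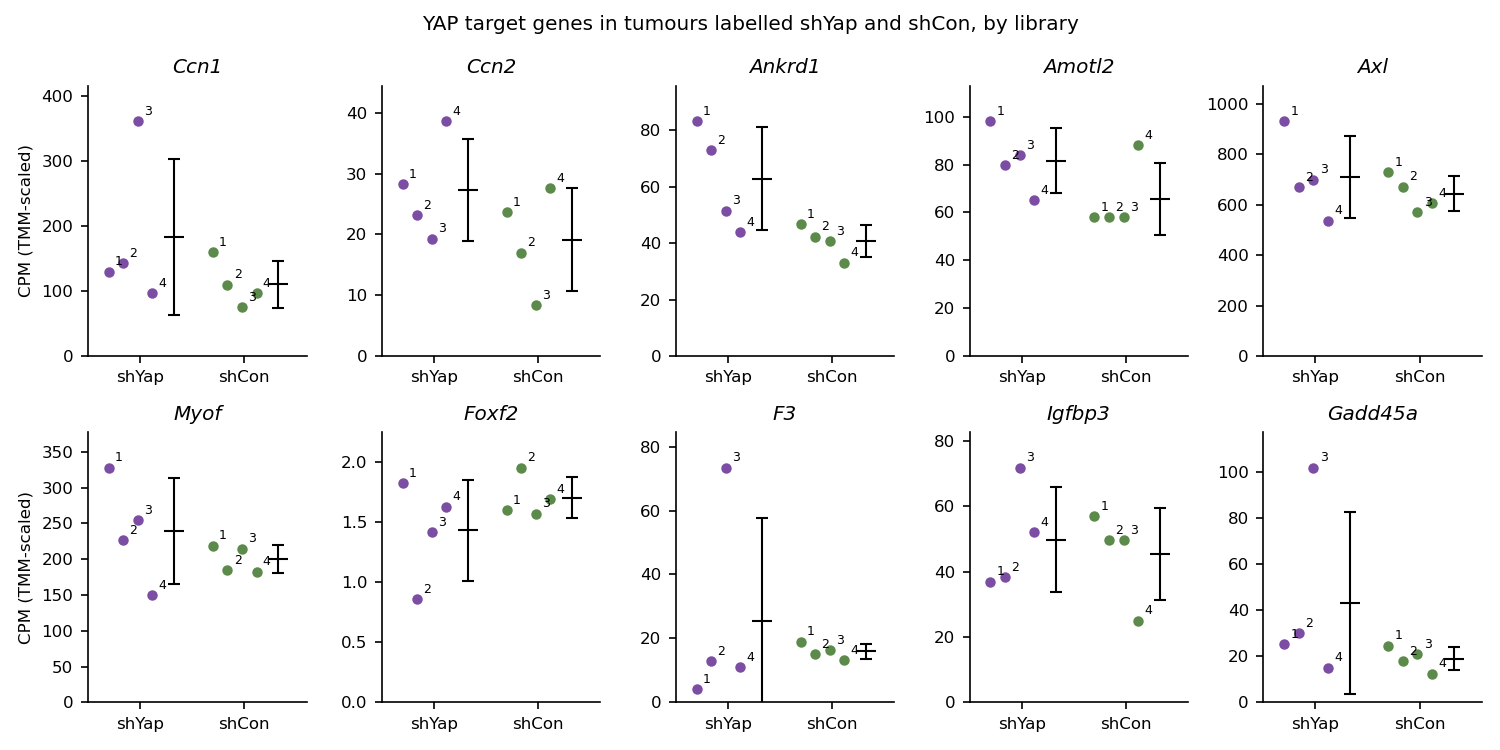
CPM of each of the 10 YAP target genes by library in the hairpin table, shYap on the left and shCon on the right of each panel, with replicate numbers beside the points and the mean ± SD (n = 4) at the right of each group; the SD bar of F3 in shYap is cut at 0. The groups overlap in every panel, and shYap replicate 3 stands far above the others for Ccn1, F3 and Gadd45a.

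The spread among the libraries labelled shYap was wide, with a coefficient of variation of 127% for F3, 92.0% for Gadd45a and 65.9% for Ccn1, against a median of 20.8% over all genes of at least 5 CPM. In shCon libraries the same genes varied by 15.04%, 27.1% and 32.7%, against a median of 11.9%. The 95% intervals of the log2 fold changes reached from -0.084 to 1.54 for Ccn1, from -0.18 to 1.21 for Ccn2 and from 0.11 to 2.25 for Gadd45a. These intervals use a normal quantile and are too narrow for so few libraries. The edgeR test of Gadd45a gave an unadjusted p of 0.0600, so its interval does not set it apart from 0. Wwtr1 was likewise highest in shYap replicate 3, at 192 CPM, while the other libraries of the table lay between 92.6 and 142 CPM.

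Other genes of the pathway did not pass the test between the libraries labelled shYap and shCon, where 0 of all 16571 genes passed. The counts of 0 that follow are those of the whole table and not particular to the pathway. None of the 12 other YAP and TAZ targets was called, with a median log2 fold change of -0.049, and the smallest p among them was that of Ccdc80, a matrix protein gene (-0.33 ± 0.21, adjusted p = 0.642). Tead4 had groups that did not overlap, 23.0 ± 8.50 CPM in shYap and 10.7 ± 1.56 CPM in shCon libraries (SD, n = 4 each, log2 fold change 1.10, adjusted p = 0.175 in edgeR). Groups without overlap were found for 6.57% of all genes, 2.61% with shYap above. Of the immediate early genes, 0 of 16 were called, and Ier3 (1.31), Klf4 (1.42), Egr1 (0.52) and Klf6 (0.57) had the smallest p. Of the TGF-beta targets, 0 of 10 were called, and Pmepa1 had a log2 fold change of -1.01. Of the 13 targets of serum response factor, 0 were called.

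**Figure D4:**
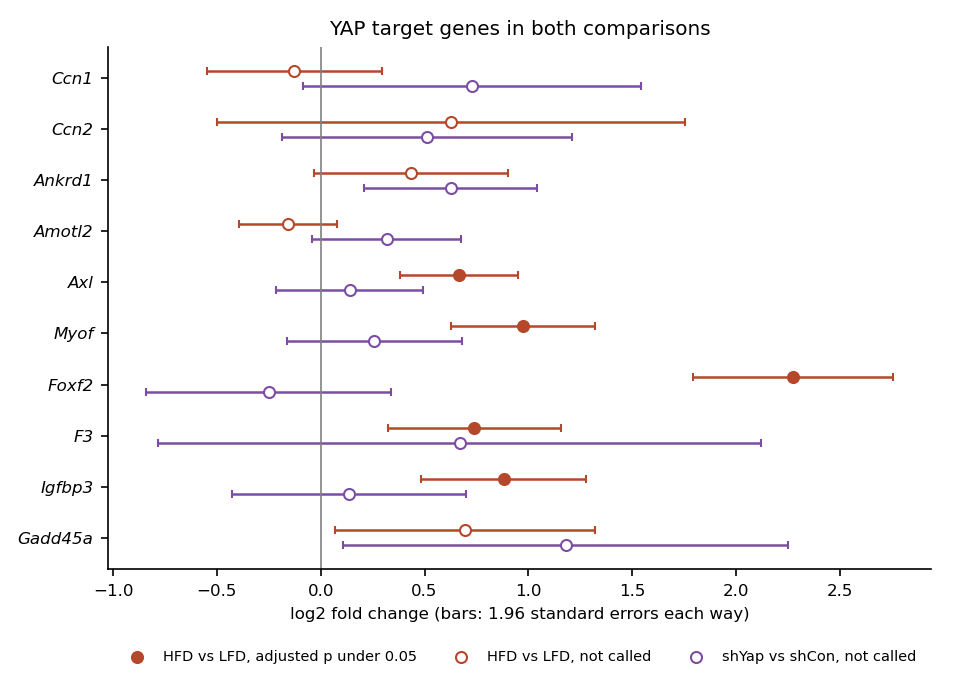
Log2 fold change of the 10 YAP target genes for HFD against LFD (upper mark of each pair) and shYap against shCon (lower mark). Bars are approximate 95% intervals from the standard error and a normal quantile, and filled marks have an adjusted p under 0.05. Filled marks are Axl, Myof, Foxf2, F3 and Igfbp3 in the diet comparison, and there are none in the hairpin comparison.

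Each gene was then set against the Yap1 level of its own library, with the group in the model, so that the slope reads the log2 change of a gene per log2 unit of Yap1 within groups. The Yap1 level spanned 1.29-fold from the lowest to the highest library of the diet table and 1.17-fold in the hairpin table, so a slope of that unit lies beyond the range measured. Among the HFD and LFD libraries, 0 of the 10 slopes passed edgeR's test, and 0% of all 16339 genes did, although 5417 genes (33.2%) had an unadjusted p under 0.05. That count of 0 turned on single settings: 2034 genes were called without LFD replicate 1, 5465 without LFD replicate 3 and 3562 with another scaling (RLE factors), none of the 10 among them. Positive slopes were found for 3 of the 10 genes, with a median of -0.57 beside -0.15 for all genes. Within LFD, Yap1 was lowest in replicates 2 and 4 and highest in replicate 5. The hepatocyte marker sum was likewise lowest in replicates 2 and 4 (10781 and 14846 CPM) and highest in replicate 5 (106360 CPM). A slope on Yap1 can thus also follow tissue makeup, and the part of tissue makeup in the slopes was not tested.

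The steepest slope of the 10 genes in the diet table was that of Ccn2, 7.87 ± 2.84 (unadjusted p = 0.0215, adjusted p = 0.0976). It was 5.03 ± 2.24 without LFD replicate 3, which had the highest Ccn2 level of its group, 1.33 ± 2.72 without group in the model and 11.6 ± 3.06 with upper-quartile factors, and was called in none of these. The opposite sign was found for Axl, with -1.80 ± 0.63 (unadjusted p = 0.0169, adjusted p = 0.0878). Ccn1 had a slope of -0.05 ± 1.27, indistinguishable from 0 at this spread. Among the shYap and shCon libraries, 0 of the 10 slopes passed, as did 0% of all genes, and 2.91% had an unadjusted p under 0.05. Positive slopes were found there for 8 of the 10 genes, with a median of 0.20 beside -0.026 for all genes. There Ccn1 (5.96 ± 1.955, unadjusted p = 0.0151), F3 (9.66 ± 4.03, unadjusted p = 0.0450) and Gadd45a (6.95 ± 2.95, unadjusted p = 0.0477) had positive slopes, each with an adjusted p of 0.926. Without shYap replicate 3, which had the second highest Yap1 level of the table, the slopes were 2.66 ± 1.81 for Ccn1, 1.65 ± 2.49 for F3 and 1.65 ± 2.11 for Gadd45a.

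**Figure D5:**
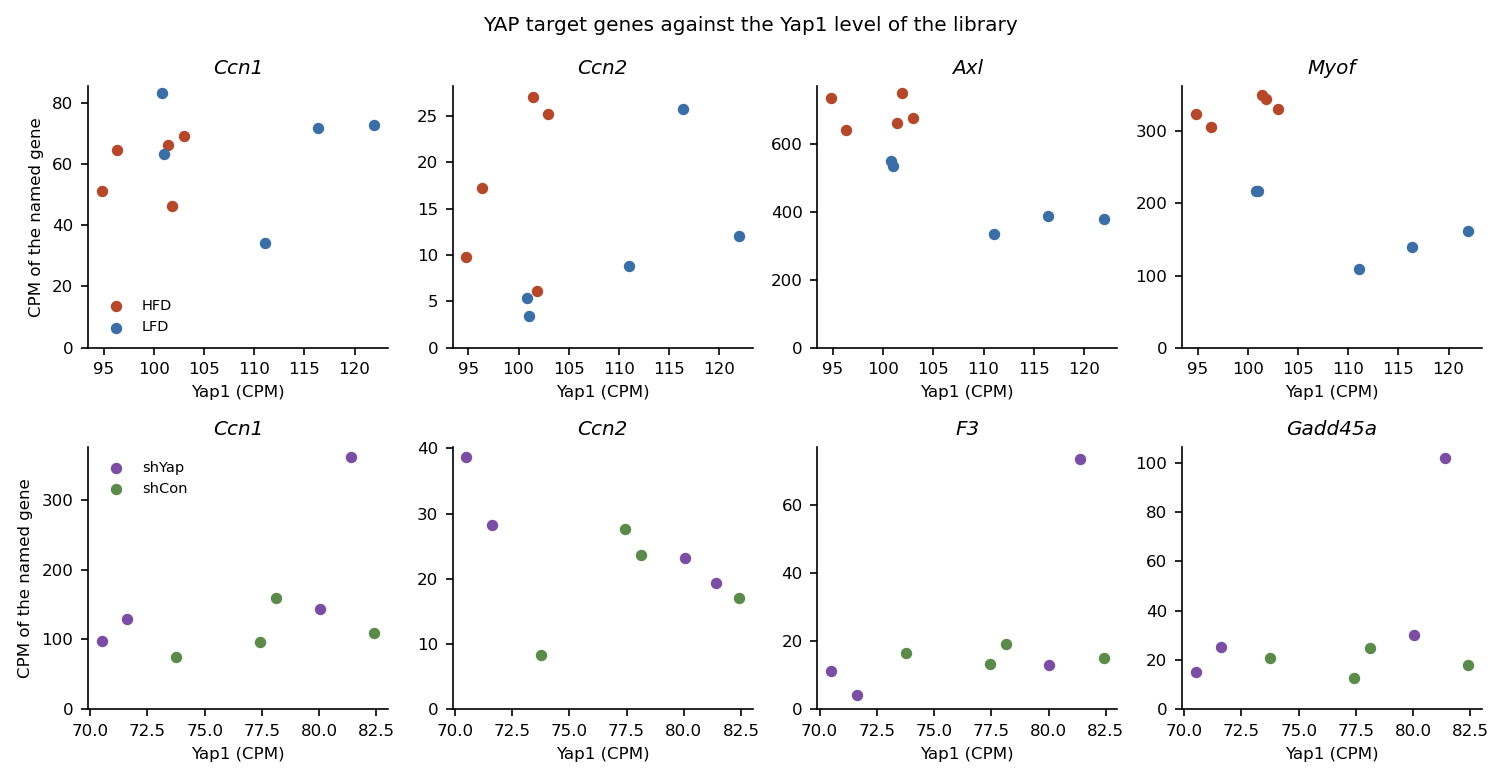
CPM of selected YAP target genes against the Yap1 level of the same library in CPM (horizontal axes do not start at 0), for HFD and LFD tumours in the upper row and for tumours labelled shYap and shCon in the lower row. Yap1 spans 94.8 to 122 CPM in the upper row and 70.5 to 82.4 CPM in the lower row, and the highest Ccn1, F3 and Gadd45a values of the lower row belong to 1 library, shYap replicate 3.

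Ccn1 and Ccn2 are often used as a pair of readouts. Both were highest in HFD replicates 1, 2 and 5, while in the libraries labelled shYap replicate 3 was the highest for Ccn1 and the lowest for Ccn2. After centring on the group means, the correlation of their log2 levels was 0.31 over the 10 libraries of the diet table and -0.09 over the 8 of the hairpin table, given as a description of libraries that share depth and tissue makeup. In the diet table the genes most like Ccn1 by this measure were Golm1 (r = 0.96), Noct (0.92), Cbfa2t2 (0.91), Sirt1 (0.89) and Tfpt (0.89). Those most like Ccn2 were Ly6d (0.93), Phldb2 (0.88), Adamts9 (0.87), Tasp1 (0.86) and Adamts2 (0.86). In the hairpin table Mxd1 (0.98), Mrpl9 (0.98), Tgif1 (0.98) and Kif21b (0.97) were among those most like Ccn1. For Ccn2 they were Ptpn1 (0.96), Rab7 (0.95), Tmbim4 (0.94), Gpr180 (0.92) and Arhgap17 (0.92). No gene named here appeared in more than 1 of these 4 sets. Of the other YAP target genes, Myof (0.64) and Amotl2 (0.62) were nearest to Ccn1 in the diet table. They ranked only 432 and 492 among 11606 genes. Gadd45a (0.89) and F3 (0.77) were nearest in the hairpin table, at ranks 171 and 1083 among 11452 genes. Ccn1, Gadd45a and F3 were each highest there in shYap replicate 3 (362, 102 and 73.4 CPM).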

How the data were processed

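The authors deposited 2 tables of estimated counts per gene, one of 10 HFD and LFD libraries and one of 8 shYap and shCon libraries. The submitters' processing notes list STAR 2.7.3a, Partek, DESeq2, GRCm38 and mm10 without stating what each was used for. The annotation, read length and library strand are not given in the sources used here. Since the labels do not tie libraries to separate animals, each p-value reflects the spread among the libraries sequenced, which may be technical.

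Values were rounded to integers before testing. Each table was fitted alone in R 4.3.3 with edgeR 4.0.16 (filterByExpr, TMM factors, robust quasi-likelihood test, Benjamini-Hochberg adjustment over all genes tested). CPM use TMM-scaled library sizes. Standard errors were derived from the F statistic (log2 fold change over the root of F). The 95% intervals apply a normal quantile to them and not that of the F test. They are therefore approximate, and can leave out 0 where the test gives an unadjusted p above 0.05. Gene positions and exon lengths are those of the GENCODE annotation on GRCm38 whose symbols and starts matched the tables. The scripts were tested on simulated data. All 10 genes, Yap1, Wwtr1 and the TEAD genes are named whether called or not, and up to 4 genes of each further list by p. Krt18 and Col3a1 were named for their level after their values were seen. The genes and lists were chosen with earlier results of these data known. Alternatives were DESeq2 1.42.0, limma 3.58.1 voom, other scaling and filters, a replicate block and the hepatocyte level as a covariate. Further ones were summed close HFD libraries (replicate 1 with 2, and replicate 3 with 4) and each library left out. The fit without LFD replicates 1 and 5 together was chosen after seeing the data. Likeness used log2 CPM of genes of at least 5 CPM, without predicted genes. Some genes that the naming rule would include are not reported here.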

Additional observations from a re-analysis of the deposited data

Results flagged for a closer look

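Among 48 groups of libraries looked at (12 genes in 4 groups), 2 held a library far from the others of its group, and chance alone gives about 1 in 20 such groups. F3 had 73.4 CPM in the library labelled shYap replicate 3, set apart from the other 3 shYap libraries by 0.873 of the group's range. Amotl2 had 88.2 CPM in shCon replicate 4, set apart from the other 3 shCon libraries by 0.991 of the range.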

How the results depend on the processing

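In the HFD and LFD comparison 5 of the 10 genes were called higher in most alternatives. The exceptions were 6 without LFD replicate 4 or 5, 4 without LFD replicates 1 and 5 together, and 1 with the hepatocyte level as a covariate, where Ankrd1 changed sign (-0.28). Leaving out 1 library gave 5 to 6 genes. The count over all genes moved from 6710 to 1364 with that covariate and to 4233 with the closest HFD libraries summed. In the shYap and shCon comparison 0 genes of the list were called in every alternative run, while over all genes 94 were called without shCon replicate 4 and 408 by DESeq2.

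The labels do not say whether the replicate numbers pair the samples. After centring on the group means, same-numbered libraries correlated at -0.49 to 0.308 in the diet table and -0.043 to 0.172 in the hairpin table. Not every sample matched its own number best. These correlations run over all genes tested and can also follow tissue makeup, so they cannot decide whether the samples were paired. With the replicate block, 5 of the 10 genes were again called higher in HFD (4929 of all genes) and 0 between shYap and shCon. F3 changed sign between shYap and shCon with the replicate block (-0.12), with a block by column numbers (-0.0045) and in voom (-0.16). Replicate numbers are those of the sample titles, and for shYap replicates 3 and 4 they differ from the numbers of the deposited columns. The block by column numbers kept only numbers found in both groups, and so left out shCon replicate 3 and shYap replicate 4. Leaving out 1 library moved F3 between -0.74 and 1.03, Igfbp3 between -0.068 and 0.27 and Axl between -0.018 and 0.25.

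Slopes on Yap1 were unstable in sign. In the diet table they changed sign with RLE factors for Ccn1 (0.23) and Amotl2 (0.047), and with upper-quartile factors for Ccn1 (0.17), Amotl2 (0.18), Foxf2 (0.041) and Gadd45a (-1.92). Without group in the model they did so for Ccn1 (0.32), Amotl2 (0.32), Igfbp3 (-1.91) and Gadd45a (-1.60), and 4 of the 10 genes were called, beside 29.1% of all genes. Leaving out 1 library gave -0.95 to 1.13 for Ccn1, -0.56 to 0.53 for Amotl2, -1.96 to 0.98 for Foxf2 and -3.00 to 2.01 for Gadd45a. In the hairpin table the sign changed with upper-quartile factors for Amotl2 (-0.92) and Myof (-0.38). Without group it changed for Ankrd1 (-0.85), Amotl2 (-0.42), Axl (-0.028) and Myof (-0.35). Leaving out 1 library gave -1.01 to 1.74 for Ankrd1, -1.37 to 1.03 for Amotl2, -0.71 to 1.74 for Axl, -1.75 to 1.92 for Myof and -0.91 to 2.80 for Igfbp3. The cause of these changes was not tested. Depth limits Foxf2 most, at 6 to 23 counts per LFD library.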

Other observations

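Tumours of mice on the high-fat diet stand in both tables, as HFD in one and as shCon and shYap in the other. Only HFD and shCon are set side by side here. Foxf2 averaged 4.30 ± 0.773 CPM in HFD (SD, n = 5) and 1.71 ± 0.174 CPM in shCon libraries (SD, n = 4). Myof averaged 332 ± 17.8 CPM in HFD and 200 ± 19.3 CPM in shCon, and Ccn1 averaged 59.6 ± 10.2 CPM in HFD and 110 ± 36.1 CPM in shCon. Axl averaged 693 ± 47.9 CPM in HFD and 644 ± 70.7 CPM in shCon. The tables were quantified separately and scaled alone, so these levels were not tested against each other. The summed hepatocyte markers were 477 to 3855 CPM in HFD and 10908 to 38782 CPM in shCon libraries.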
